A study of Mus musculus with 22 samples.

Results

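Endothelial cells, which line the blood vessels, were compared with motor neurons, the neurons that send axons from the spinal cord to muscle, in wild-type mouse embryos at E12.5. The comparison used 5 of the 22 libraries of the study, chosen by their labels: 2 libraries of wild-type endothelial cells (batches 1 and 3) and 3 of wild-type motor neurons (batches 1, 2 and 3). The spinal cord had been dissected together with the meninges around it, embryos of 1 genotype had been pooled, and the tissue had been dissociated with papain. Endothelial cells were sorted as Kdr-Cherry+ and motor neurons as ISL1-fGFP+, so each sort takes any cell that carries the reporter protein. The labels name no treatment other than the sorting, and all 5 libraries are labelled wild type. The same 2 sorts were also made from embryos lacking Plxnd1, a plexin receptor for semaphorins, with 3 libraries each, and these 6 libraries serve below as a second measurement of the same contrast. The files of wild-type endothelial batch 2 and knockout endothelial batch 1 held the same count for all 55376 genes. The labels do not show which of the 2 samples was sequenced, so wild-type endothelial batch 2 was left out and the knockout results are given with and without this file. The 5 libraries held 21526707 to 26930214 counts. The number of embryos in a pool was not stated in the labels, and the p-values reflect only how much these libraries vary.

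Vessels grow into the spinal cord from a plexus around it at this stage, and acquire there the tight junctions and transporters of the blood-brain barrier. VEGF, which binds the receptors encoded by Kdr and Flt1, guides this growth, and the ETS and SoxF transcription factors hold endothelial identity. Motor neurons are specified by Isl1, Mnx1 and Lhx3, make acetylcholine with the enzyme encoded by Chat, and are surrounded in the cord by interneurons and dividing progenitors. Isl1 is also active in sensory neurons and in some dorsal interneurons.

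The 2 reporter genes and 1 further marker of each cell type are shown by their promoters, since each sort rests on the activity of one of these genes. The windows run from 250 bases before to 50 bases after an annotated start (RefSeq, GRCm38.p6). Kdr lies at chr5:75978406-75978705, minus strand, Isl1 at chr13:116309639-116309938, minus strand, and Chat at chr14:32465860-32466159, minus strand. For Egfl7, a secreted vessel protein with 3 windows in RefSeq, the one holding an ETS match was chosen, at chr2:26583615-26583914, plus strand. Capitals mark a match to the ETS motif described next. The 4 windows read as follows, 5′ to 3′ on the strand of the gene.
Kdr: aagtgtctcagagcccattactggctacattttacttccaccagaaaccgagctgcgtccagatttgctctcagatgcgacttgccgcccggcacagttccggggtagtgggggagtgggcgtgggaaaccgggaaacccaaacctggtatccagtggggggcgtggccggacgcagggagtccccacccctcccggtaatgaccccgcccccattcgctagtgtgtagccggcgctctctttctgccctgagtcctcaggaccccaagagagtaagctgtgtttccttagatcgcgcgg
Egfl7: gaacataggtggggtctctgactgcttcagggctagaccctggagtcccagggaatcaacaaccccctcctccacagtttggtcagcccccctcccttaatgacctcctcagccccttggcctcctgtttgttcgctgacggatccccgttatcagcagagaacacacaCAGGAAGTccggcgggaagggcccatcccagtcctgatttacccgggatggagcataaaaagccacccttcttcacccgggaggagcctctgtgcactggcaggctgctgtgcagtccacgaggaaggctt
Isl1: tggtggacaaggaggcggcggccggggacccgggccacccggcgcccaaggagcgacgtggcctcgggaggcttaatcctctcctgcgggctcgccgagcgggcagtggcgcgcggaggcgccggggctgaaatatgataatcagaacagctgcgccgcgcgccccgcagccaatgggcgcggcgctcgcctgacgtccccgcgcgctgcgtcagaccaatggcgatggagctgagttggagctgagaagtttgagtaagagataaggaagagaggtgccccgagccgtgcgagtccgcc
Chat: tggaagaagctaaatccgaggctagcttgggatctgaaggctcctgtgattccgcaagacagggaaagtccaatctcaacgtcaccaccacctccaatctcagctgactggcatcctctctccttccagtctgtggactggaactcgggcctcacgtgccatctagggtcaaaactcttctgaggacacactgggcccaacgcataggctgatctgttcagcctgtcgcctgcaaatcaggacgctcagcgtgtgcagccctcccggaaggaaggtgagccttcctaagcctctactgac

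Short motifs were searched on both strands in all windows: CCGGAAGT or CAGGAAGT for the ETS family, ACAAAG for the Sox family and TAATTA for homeodomain factors. No motif contains another. The Egfl7 window, chosen for this match, had the ETS letters CAGGAAGT, beginning 81 bases before the start shown. The other 3 windows above held none of the motifs. Of the 20 endothelial markers 11 had a window, 15 windows in all, and 1 of these (6.67%) held an ETS match, against 2321 of 32851 windows of all genes (7.07%). TAATTA was in 2 of the 15 (13.3%), both of Erg, against 5.29% of all windows. Sox letters were in 3 of the 15 (20%), in Egfl7, Eng and Tek, against 18.7% of all windows. Of the 20 windows of 15 motor neuron markers 1 (5.0%) held TAATTA, a window of Foxp1, and none held an ETS match. With so few windows 1 match moves a share by several percentage points, and the shares describe letters in a short window only.

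The libraries of a sort resembled each other far more than those of the other sort. Across the tested genes the log2 levels of the 2 endothelial libraries correlated at r = 0.981, and those of the motor neuron libraries at 0.984 to 0.988. Between the sorts r was 0.747 to 0.780 for endothelial batch 1 and 0.798 to 0.827 for endothelial batch 3. Genes are not independent, so these correlations are a description. Endothelial batch 3 lay nearer to the motor neurons than batch 1 did, a difference that recurs in the neuronal genes below.

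Of 18345 genes tested, 6320 (34.5%) were higher in endothelial cells and 5807 (31.7%) were higher in motor neurons at an adjusted p under 0.05 (edgeR quasi-likelihood test, Benjamini-Hochberg adjustment). With a minimum difference of 4-fold as well, 3119 genes (17.0%) were higher in endothelial cells and 1739 (9.48%) in motor neurons. Either direction was called for 66.1% of the genes. These shares are the background for every list below. The median log2 fold change, endothelial minus motor neuron, was 0.02 over all tested genes. Log2 fold changes are given on this scale with their standard error after ±. A gene is called higher below only where it passed this test. Levels are CPM, read counts scaled to the size of the library, in the order batch 1 and 3 for endothelial and batch 1, 2 and 3 for motor neuron libraries, and genes are compared with each other only in CPM per kilobase of exons.

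**Figure D1:**
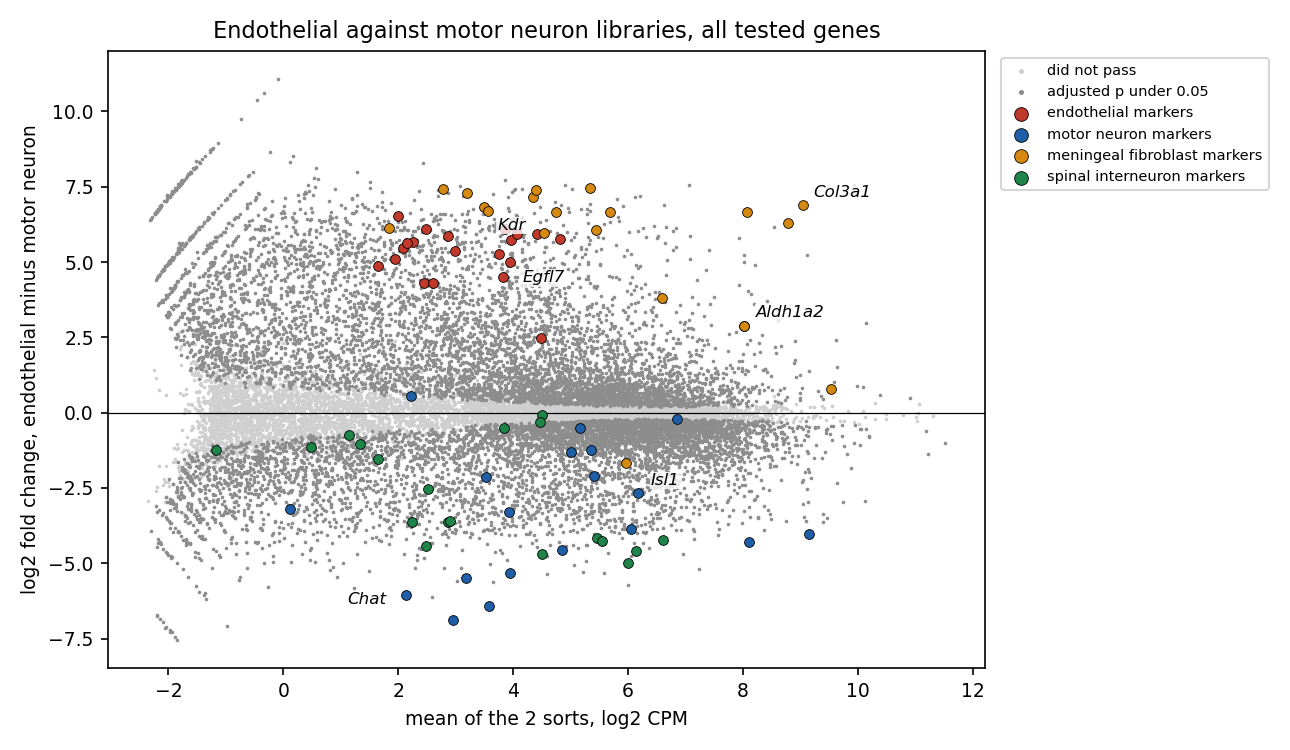
Log2 fold change (endothelial minus motor neuron) against the mean log2 CPM of the 2 sorts for all 18345 tested genes, with 4 marker lists in colour. All 20 endothelial markers lie above 0, meningeal fibroblast markers such as Col3a1 lie as far up, and spinal interneuron markers lie with the motor neuron markers below 0.

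All 20 endothelial markers were higher in the endothelial libraries, each by more than 4-fold, with log2 fold changes of 2.49 to 6.52 and a median of 5.54. Kdr, the VEGF receptor whose reporter defined the sort, was at 267 and 162 CPM in endothelial cells and at 5.46, 2.79 and 3.36 CPM in motor neurons, a log2 fold change of 5.78 ± 0.35 (SE; edgeR adjusted p = 7.6e-05). Egfl7 was at 110.1 and 65.9 against 3.12, 2.46 and 2.56 CPM, or 5.01 ± 0.26 (SE; edgeR adjusted p = 5.6e-05). Both genes were far apart between the sorts, with no overlap, and both were higher in endothelial batch 1 than in batch 3. Cdh5, the cadherin of endothelial junctions, stood at 195 and 153 against 4.56, 1.45 and 2.39 CPM (5.94 ± 0.41), and Cldn5, a claudin of vessel tight junctions, at 148 and 94.2 against 2.63, 1.2 and 1.47 CPM (6.08 ± 0.35). The angiopoietin receptor Tek was at 73.7 and 41.2 CPM and, in motor neurons, at 1.64, 0.0482 and 0.714 CPM. Robo4 had the smallest difference of the list, 2.49 ± 0.22, with 65 and 41.5 against 9.65, 8.24 and 10.5 CPM. For each of the 20 genes batch 1 exceeded batch 3, and the median ratio of batch 3 to batch 1 was 0.637. In bulk libraries fewer cells of a type and less RNA per cell cannot be told apart.

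The transcription factors of endothelial cells followed their markers, with 21 of 23 tested members higher in endothelial cells, none higher in motor neurons and a median log2 fold change of 4.86. The ETS factors Ets1 (389.9 and 213 against 7.39, 5.06 and 4.54 CPM, 5.73 ± 0.34), Fli1 (5.68 ± 0.43), Elk3 (5.01 ± 0.28) and Erg (4.86 ± 0.47) were all higher. So were the SoxF genes Sox17 (5.10 ± 0.37), Sox18 (4.32 ± 0.21) and Sox7 (4.30 ± 0.34). Klf2 and Klf4, which respond to blood flow in endothelium, differed by 5.70 ± 0.42 and 4.87 ± 0.49. Epas1, a hypoxia-inducible factor, was at 177 and 106 against 4.31, 1.69 and 2.35 CPM (5.65 ± 0.41). The other members, 2 of 23, did not pass. Nr2f2, a factor of venous identity that neurons also use, was level at 326 and 345 against 319, 388 and 322 CPM (-0.03), and Prox1, known from lymphatic endothelium and from neurons, was at 17.4 and 37.6 against 49.9, 40.4 and 57 CPM (-0.84). Prox1 was called higher in motor neurons without endothelial batch 3 (-1.50) and with batch as a block (-1.06).

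Genes of the barrier of neural vessels were higher in endothelial cells in 24 of 25 cases, 20 of them by at least 4-fold, and the median was 3.61. Slc2a1, the glucose transporter of the barrier, was at 270.4 and 193 CPM against 21.8, 17.3 and 17.9 CPM, a difference of 3.61 ± 0.18 (SE; edgeR adjusted p = 4.9e-05). The 2 endothelial libraries were both more than 8-fold above every motor neuron library. Mfsd2a, which carries lipids across the barrier, was at 32.5 and 40.1 against 4.76, 4.43 and 4.96 CPM (2.94 ± 0.15). The efflux pump genes Abcb1a and Abcg2 differed by 4.66 ± 0.76 and 2.32 ± 0.21. Adgra2 and Reck, which together receive Wnt7 signals in vessels, differed by 4.51 ± 0.13 and 1.96 ± 0.10, and the Wnt target Axin2 by 2.91 ± 0.13. Marveld2, a protein of tricellular junctions, was the 1 member that did not pass (2.76 and 2.65 against 3.94, 5.49 and 2.1 CPM).

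Among genes of sprouting tip cells, 14 of 15 were higher in endothelial cells and 1, the receptor component Ramp3, was higher in motor neurons (4.59 and 5.11 against 12, 10.4 and 15.2 CPM, -1.37 ± 0.22). Apln, the ligand of the apelin receptor, was at 23.6 and 14 against 0.657, 0.434 and 0.546 CPM (5.08 ± 0.33), and the tip cell gene Esm1 at 4.34 and 4.42 against 0.205, 0.145 and 0.168 CPM (4.62 ± 0.29). Of the genes of arteries and veins 11 of 14 were higher in endothelial cells, 1 was higher in motor neurons and 2 did not pass. The summed CPM of this list in motor neuron batches 1, 2 and 3 was 70.1, 88.2 and 67.4% of the endothelial sum. The arterial connexins Gja4 and Gja5 differed by 4.10 ± 0.39 and 5.70 ± 0.52, and the venous receptors Ephb4 and Aplnr by 5.51 ± 0.25 and 6.31 ± 0.43. The endothelial libraries thus held RNA of tip cell, arterial and venous genes alike.

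Of the 20 motor neuron markers 14 were higher in motor neurons, 1 was higher in endothelial libraries and 5 did not pass, with a median log2 fold change of -3.24. Isl1, whose reporter defined the sort, was at 192, 275 and 126 CPM in motor neurons and 16.9 and 45.1 CPM in endothelial cells, or -2.67 ± 0.53 (SE; edgeR adjusted p = 0.0055). Chat was at 33, 53 and 20.3 CPM against 0.359 and 0.688 CPM, or -6.07 ± 0.60 (SE; edgeR adjusted p = 0.00034). The groups did not overlap for either gene, but the endothelial libraries held 15.7% of the motor neuron level of Isl1 and only 1.48% of that of Chat. Mnx1, a defining factor of motor neurons, was at 72.5, 135 and 45.1 against 0.717 and 0.688 CPM (-6.89 ± 0.66), and Slc18a3, the vesicular acetylcholine transporter, at 101, 180.1 and 59 against 1 and 1.67 CPM (-6.40 ± 0.66). Lhx3 (-5.50 ± 0.59), Ret (-4.56 ± 0.49) and the neurofilament genes Nefl (-4.30 ± 0.50) and Nefm (-4.02 ± 0.47) showed the same order of libraries, with batch 2 highest and batch 3 lowest. Of the exon length of Nefl 32.8% overlaps Nefm on the other strand, and reads from shared bases were assigned to neither gene.

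The exception among the markers was Aldh1a2, which makes retinoic acid in limb-level motor neurons and also in meninges. It was at 844 and 650.1 CPM in endothelial libraries against 90.8, 164 and 48 CPM in motor neurons (2.89 ± 0.48). Within the motor neuron libraries it followed Chat, with batch 2 highest and batch 3 lowest. Foxp1, a factor of the limb-innervating columns that endothelium also expresses, did not pass (117, 179 and 86 against 113 and 107 CPM), nor did 4 others, Mecom among them. Mecom was called higher in motor neurons without motor neuron batch 3 (-1.62) and with batch as a block (-0.81).

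Of 25 transcription factors of motor neurons and their columns 18 were higher in motor neurons, 6 did not pass and 1, Etv5, was higher in endothelial libraries (26.6 and 31.4 against 5.3, 2.65 and 2.94 CPM, 2.99 ± 0.31). Lhx1 had the highest level per kilobase of the list (240.0 CPM per kilobase), at 808, 958 and 1034 CPM against 16.9 and 34.1 CPM (-5.20 ± 0.38 SE, edgeR adjusted p = 0.00013). Lhx1 is a factor of lateral limb motor neurons and of many interneurons, and unlike Isl1 it was highest in batch 3. Isl2 (-3.28 ± 0.78), Lhx4 (-5.33 ± 0.56), Pou3f1 (-3.57 ± 0.58) and Onecut2 (-2.45 ± 0.37) were also higher in motor neurons.

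Genes of cholinergic transmission were higher in motor neurons in 9 of 11 tested cases. The degrading enzyme Ache was at 55.2, 78.6 and 38.8 against 4.59 and 5.91 CPM (-3.45 ± 0.35), and the nicotinic receptor subunits Chrna3 and Chrnb2 differed by -3.25 ± 0.42 and -3.31 ± 0.38. The choline transporter Slc5a7 was an exception in size, with 88, 126 and 55.6 against 21 and 20.8 CPM (-2.11 ± 0.35), so that the endothelial libraries held 23.2% of the motor neuron level while Slc18a3 stood at 1.18%. Slc44a1, a choline transporter found in many cells, was the 1 member higher in endothelial libraries (72 and 64 against 26.9, 24 and 21.8 CPM, 1.49 ± 0.12). Of 20 voltage-gated channel genes 19 were higher in motor neurons, among them the sodium channels Scn2a (-2.76 ± 0.12) and Scn3a (-2.98 ± 0.15) and the calcium channel Cacna1b (-3.50 ± 0.38), and 1 did not pass. All 24 genes of the neuronal cytoskeleton were higher in motor neurons, with a median of -3.41. The neuronal tubulin Tubb3 was at 2205, 2482 and 2176 against 116 and 331 CPM (-3.36 ± 0.48), the intermediate filament gene Ina at 2131, 2652 and 2276 against 76.4 and 218 CPM (-4.0 ± 0.50) and Stmn2, a regulator of microtubules in growing axons, at 1228, 1509 and 1133 against 64.1 and 157 CPM (-3.54 ± 0.43).

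The 10 largest differences on the endothelial side, among genes with a mean of at least 50 CPM in the higher sort and groups that did not overlap, a choice that favours genes near 0 in the other sort, held none of the 20 endothelial markers. The first was Slc22a6, an organic anion transporter, at 94.1 and 82.4 against 0.205, 0.145 and 0.462 CPM (8.30 ± 0.29 SE, edgeR adjusted p = 3.0e-05). The globin genes Hbb-bh1 (7.73 ± 0.45), Hbb-y (7.57 ± 0.54) and Hba-x (7.57 ± 0.40) and the red cell anion exchanger Slc4a1 (7.44 ± 0.26) belong to red blood cells. The proteoglycan Lum (7.46 ± 0.52), the collagen-binding integrin Itga11 (7.52 ± 0.29), Itih5 (7.55 ± 0.43), Abca9 (7.44 ± 0.24) and the mesenchymal factor Tbx18 (7.42 ± 0.33) completed the 10. The smallest adjusted p outside the lists belonged to genes with close libraries: Cped1, Lrrk1, Magt1, Chst14 and Fes, a tyrosine kinase gene of myeloid and endothelial cells (71.9 and 69.3 against 3.37, 2.99 and 2.94 CPM, 4.51 ± 0.11 (SE; edgeR adjusted p = 2.9e-05)).

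On the motor neuron side the 10 largest were Mnx1, Slc18a3, A730046J19Rik, Ecel1, Slc10a4, Rasgef1c, Lhx3, Nyap2, Npy and Lhx4. Ecel1, a membrane peptidase gene needed for motor axon branching, was at 435, 670.2 and 336 against 7.1 and 11 CPM (-5.73 ± 0.43 SE, edgeR adjusted p = 0.00014). Slc10a4, a protein of cholinergic vesicles, was at 83.9, 134 and 57.5 against 1.22 and 2.5 CPM (-5.62 ± 0.54). In 9 of the 10 genes batch 2 was highest and batch 3 lowest, as for Chat. The exception was the neuropeptide gene Npy, at 303, 228 and 426 against 4.88 and 10.9 CPM (-5.33 ± 0.49), which was highest in batch 3 and lowest in batch 2. The smallest adjusted p outside the lists were those of Plcb1 (-3.32 ± 0.11), Zswim6 (-2.25 ± 0.08), Cers6 (-2.14 ± 0.08), Dock4 (-1.98 ± 0.08) and Ppfia2 (-2.85 ± 0.12). Exons of Ppfia2 overlap those of Acss3 on the other strand over 27.4% of its length, and the counting did not use strand.

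The study's question of how vessels and motor neurons exchange signals was followed through 109 ligand and receptor pairs of 83 ligands and 75 receptors. Of the ligands 45 were higher in endothelial libraries, 17 in motor neurons and 21 did not pass. Of the receptors 37 were higher in endothelial libraries, 21 in motor neurons and 17 did not pass. Over all tested genes 34.5% were higher in endothelial cells and 31.7% in motor neurons. Ligand and receptor were both higher on the endothelial side in 37 pairs and both on the motor neuron side in 10. In 6 pairs the ligand was higher in motor neurons and the receptor in endothelial libraries, and in 8 pairs it was the reverse. Some genes stand in several pairs, so these pair counts are not separate results. RNA levels say nothing of whether a pair meets in the tissue.

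**Figure D2:**
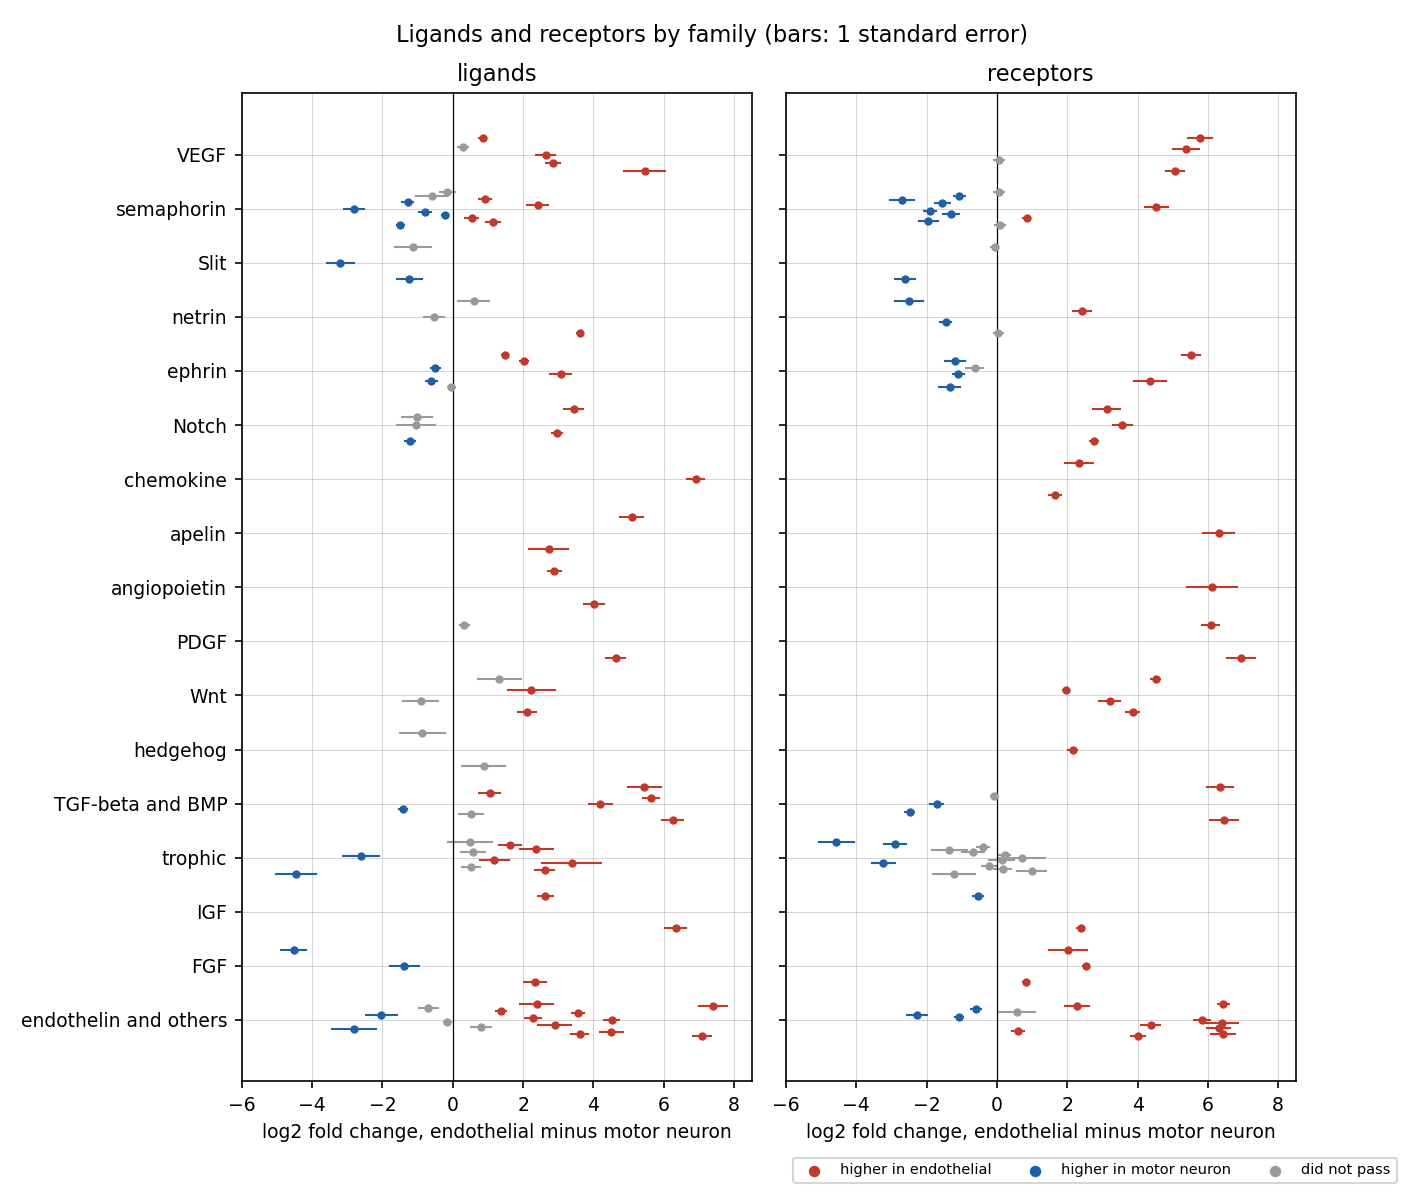
Log2 fold change (endothelial minus motor neuron) of each ligand (left) and receptor (right) by family, with bars of 1 standard error, red and blue for genes that passed the test and grey for those that did not. VEGF (apart from Nrp1, which did not pass), apelin, angiopoietin and Notch receptors lie on the endothelial side, and most plexins, Robo2 and Dcc on the motor neuron side.

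VEGF receptors and ligands both leaned to the endothelial side. Besides Kdr, the receptors Flt1 (62.7 and 40.3 against 1.81, 1.11 and 0.756 CPM, 5.38 ± 0.36) and Flt4 (5.07 ± 0.26) were higher in endothelial libraries, whereas the co-receptor Nrp1 was level (173 and 165 against 152, 193 and 139.9 CPM, 0.06). Vegfa, the main ligand, was at 199 and 193 CPM in endothelial libraries and 105, 121 and 100.5 CPM in motor neurons, a difference of 0.85 ± 0.10 (SE; edgeR adjusted p = 0.00068). It was thus well measured in both sorts, at 55.7 and 30.9 CPM per kilobase. Vegfc (2.85 ± 0.21), Vegfd (5.46 ± 0.58) and Pgf (2.64 ± 0.27) were also higher in endothelial libraries, and Vegfb did not pass.

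Among the semaphorin receptors Plxnd1 stood apart. It was at 215 and 176 CPM in endothelial libraries and 12.2, 5.16 and 7.81 CPM in motor neurons (4.54 ± 0.33 SE, edgeR adjusted p = 0.00014), and Plxnb2 was also higher in endothelial libraries (447 and 482 against 241, 253 and 276 CPM, 0.86 ± 0.10). Plxna1, Plxna2, Plxna3, Plxna4 and Plxnb1 were all higher in motor neurons, with log2 fold changes of -1.07, -1.94, -1.90, -2.70 and -1.29, as was the co-receptor Nrp2 (123 and 142 against 353, 491 and 321 CPM, -1.55 ± 0.21). Most plexins were measured in both sorts: per kilobase Plxna3 averaged 18.5 CPM in endothelial libraries and 69.1 CPM in motor neurons, against 28.3 and 1.21 CPM for Plxnd1. Of the ligands paired with Plxnd1, Sema4a was higher in motor neurons (-2.81 ± 0.29), at 19.6 CPM per kilobase against 2.79 in endothelial libraries. Sema3c was at 132, 233 and 74.5 CPM in motor neurons and 101 and 91.8 CPM in endothelial libraries and did not pass (-0.61). Sema3e was higher in endothelial libraries at a low level (10.5 and 10.4 against 4.76, 5.97 and 5.92 CPM, 0.91 ± 0.18). Motor neuron batch 2 alone held more Sema3c than both endothelial libraries together, and batch 3 less than either. Without motor neuron batch 3 the test called Sema3c higher in motor neurons (-0.93). Sema3g (2.41 ± 0.30) and Sema6d (1.14 ± 0.19) were higher in endothelial libraries. Besides Sema4a, the ligands Sema3f (-1.29 ± 0.15), Sema4d (-0.78 ± 0.17) and Sema7a (-1.50 ± 0.10) were higher in motor neurons.

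Of the Slit and Robo genes in the pairs, Slit2, Slit3 and Robo2 were higher in motor neurons and Slit1 and Robo1 did not pass. Slit3 lost its call without endothelial batch 1 (-1.0), without motor neuron batch 1 (-1.27) and with batch as a block (-0.88), and Slit1 was called higher in motor neurons without endothelial batch 1 (-0.47) or batch 3 (-2.34). The guidance ligand Slit2 was at 489, 736 and 329 CPM in motor neurons against 49.1 and 63.8 CPM (-3.20 ± 0.38 SE, edgeR adjusted p = 0.0007), and its receptor Robo2 at 236, 251 and 302 against 30.7 and 55.1 CPM (-2.61 ± 0.28). Robo1 was level (212, 222 and 234 against 194 and 232 CPM), and Robo4 was endothelial, as given above. Of the netrin receptors, Dcc (238, 271 and 251 against 25.6 and 64 CPM, -2.50 ± 0.39) and Unc5c (-1.46 ± 0.16) were higher in motor neurons and Unc5b (75 and 52.3 against 13.8, 13.6 and 8.36 CPM, 2.42 ± 0.26) in endothelial libraries. Ntn1 itself did not pass, with 51 and 161 CPM in endothelial libraries and 75.2, 61.1 and 74.1 CPM in motor neurons. Its call rested on which endothelial library was used: it was higher in endothelial libraries without batch 1 (1.21) and higher in motor neurons without batch 3 (-0.47). Flrt2, a ligand of Unc5 receptors, was at 624 and 582 against 51.7, 47.9 and 47.3 CPM (3.62 ± 0.09).

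The ephrin family was divided. Efnb2, the arterial ephrin, was at 253 and 265 against 86.6, 90.5 and 98.9 CPM (1.49 ± 0.09) and its venous receptor Ephb4 at 159.9 and 161 against 4.68, 2.31 and 3.49 CPM. Efnb1 (2.02 ± 0.11), Efna1 (3.07 ± 0.29) and Epha2 (4.36 ± 0.44) were higher in endothelial libraries as well. Epha4, a guidance receptor of limb motor axons, was higher in motor neurons (168, 201 and 176 against 73 and 97.1 CPM, -1.09 ± 0.15), as were Epha3 (-1.35 ± 0.30) and Ephb2 (-1.20 ± 0.29). The ligands Efnb3 and Efna2 were also higher in motor neurons, at 52.4 and 26.3 CPM per kilobase against 37.1 and 17.2 in endothelial libraries. The Notch receptors Notch1 (3.12 ± 0.39), Notch3 (3.57 ± 0.26) and Notch4 (2.77 ± 0.12) and the ligands Dll4 (3.44 ± 0.28) and Jag1 (2.96 ± 0.14) were higher in endothelial libraries. Jag2 was higher in motor neurons (95.7, 106 and 80.6 against 43.8 and 37.6 CPM, -1.21 ± 0.14). Notch1 is a receptor of progenitors and Notch3 of mural cells too, and markers of both cell types were present in the endothelial libraries, as given below; their part in these values was not tested.

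Chemokine, apelin and angiopoietin pairs were on the endothelial side throughout. Cxcl12 was at 1089 and 1086 CPM against 11.7, 8.09 and 7.43 CPM (6.90 ± 0.23 SE, edgeR adjusted p = 3.0e-05), its receptor Cxcr4 at 20.2 and 29.1 against 6.69, 2.51 and 5.25 CPM (2.35 ± 0.40) and the scavenging receptor Ackr3 at 70.1 and 72.1 against 23.2, 26.4 and 18.1 CPM (1.66 ± 0.16). The 2 endothelial libraries agreed closely on Cxcl12, unlike on Kdr. Angpt1 (2.89 ± 0.18) and Angpt2 (4.01 ± 0.28), the ligands of Tek, and Pdgfb (4.63 ± 0.27), by which endothelium recruits mural cells, were higher in endothelial libraries. So were their receptors, including the mural receptor Pdgfrb (507 and 428 against 5.87, 2.07 and 3.36 CPM) and the mesenchymal receptor Pdgfra (352 and 368 against 6.9, 3.66 and 5.33 CPM). Of the Wnt ligands that act on neural vessels, Wnt7b was at 18.3 and 77.9 against 11.1, 5.11 and 14.3 CPM (2.23 ± 0.66 SE, edgeR adjusted p = 0.026) and lost its call without endothelial batch 3 (log2 fold change 0.84) or without motor neuron batch 1, 2 or 3 (2.31, 1.91 and 2.55). Its receptors Adgra2, Reck and Fzd4 (3.21 ± 0.30) were higher in endothelial libraries.

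Growth factors that motor neurons make and receive were found on their own side. The neuregulin gene Nrg1, which acts on Schwann cells and muscle, was at 98.2, 159 and 58.9 against 3.19 and 6.41 CPM (-4.45 ± 0.56 SE, edgeR adjusted p = 0.00087), Fgf9 at 24.4, 31.9 and 19 against 0.825 and 1.34 CPM (-4.53 ± 0.35) and the neurotrophin gene Ntf3 at 15.3, 27.6 and 8.82 against 2.83 and 2.79 CPM (-2.61 ± 0.52). The receptors of GDNF, Ret and Gfra1 (-2.90 ± 0.32), and of HGF, Met (43.8, 64.5 and 41.6 against 3.84 and 6.81 CPM, -3.23 ± 0.34), were higher in motor neurons, while Gdnf was under 1 CPM in each of the 5 libraries. Acvr2a and Acvr2b, receptors of the activin family, were higher in motor neurons too (-2.48 ± 0.13 and -1.72 ± 0.17). The TGF-beta receptors Tgfbr2 (6.33 ± 0.37) and Acvrl1 (6.45 ± 0.39) and the ligands Tgfb1 (5.45 ± 0.46), Bmp4 (5.63 ± 0.23) and Bmp6 (6.26 ± 0.30) were higher in endothelial libraries. Igf2 was at 424 and 519.9 against 8.01, 3.9 and 5.5 CPM (6.34 ± 0.30), and the endothelins' receptor Ednra at 125 and 105 against 1.52, 1.25 and 1.18 CPM (6.44 ± 0.15). Both sorts held RNA of other cells, described below, and its part in these ligand and receptor values was not tested.

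All 22 cell cycle genes were higher in endothelial libraries, with a median of 3.44. Mki67, a marker of dividing cells, was at 296 and 242 against 23.9, 7.52 and 17.6 CPM (4.04 ± 0.44 SE, edgeR adjusted p = 0.00049) and Top2a at 389.7 and 298 against 36.3, 13.7 and 24.8 CPM (3.78 ± 0.39). Genes of DNA replication differed less, with Pcna at 1.69 ± 0.10 and Mcm2 at 2.04 ± 0.12. Motor neuron batch 2 held the least Mki67 and Top2a. Of 16 basement membrane genes 15 were higher in endothelial libraries, with a median of 5.32: Col4a1, the main collagen of vessel basement membranes, was at 3400.3 and 3063 against 63.3, 31 and 39.8 CPM (6.18 ± 0.34) and the laminin gene Lamb1 at 760.2 and 697 against 26.6, 12.3 and 13.3 CPM (5.39 ± 0.37). Agrn did not pass, being high in both sorts (1008 and 1105 against 1178, 1179 and 1179.6 CPM); motor neurons use its protein at the muscle synapse.

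Of 20 glycolysis genes 9 did not pass and 3 were higher in endothelial libraries: Slc2a1, the hexokinase gene Hk2 (21.3 and 18.7 against 2.96, 1.49 and 1.72 CPM, 3.27 ± 0.30) and the lactate dehydrogenase gene Ldha (172 and 156 against 83.4, 105 and 65.2 CPM, 0.96 ± 0.19). Another 8 were higher in motor neurons, among them Hk1 (-1.32 ± 0.11), the phosphofructokinase gene Pfkp (166, 192 and 116 against 28.1 and 23.9 CPM, -2.60 ± 0.24), the neuronal enolase Eno2 (-2.28 ± 0.09) and Ldhb (-0.92 ± 0.16). Hk1 and Hk2, and Ldha and Ldhb, which encode enzymes for the same step, thus lay on opposite sides. The endothelial count rose to 6 of 20 with batch as a block or without motor neuron batch 2, and to 5 without endothelial batch 1. Reads that align to several places were not counted, which lowers the counts of enzyme genes with processed copies.

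Of 38 Hox genes tested 26 were higher in motor neurons, none passed as higher in endothelial libraries and 12 did not pass, with a median of -1.39. Hoxb8 was at 1398, 1295 and 2022 against 80.6 and 178 CPM (-3.60 ± 0.43 SE, edgeR adjusted p = 0.00069) and Hoxb9 at 1626, 1643 and 2147 against 122 and 209 CPM (-3.45 ± 0.30), the largest differences of the Hox genes counted in both sorts (Hoxb13 had no count in endothelial libraries). Both were highest in motor neuron batch 3, not in batch 2. Differences were small in paralog group 10, where Hoxc10 differed by -0.39 ± 0.09 (108, 113 and 99.1 against 79.2 and 83.8 CPM). Hox genes mark position along the body axis, and the share of cord levels in each sort was not tested. Exons of Hoxb2, Hoxb3, Hoxd3 and Hoxd4 share 45.1% to 68.6% of their length with other annotated genes, which lowers their counts in all libraries. Without endothelial batch 1, 2 Hox genes, Hoxd11 (1.36) and Hoxd12 (1.5), were called higher in endothelial libraries.

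**Figure D3:**
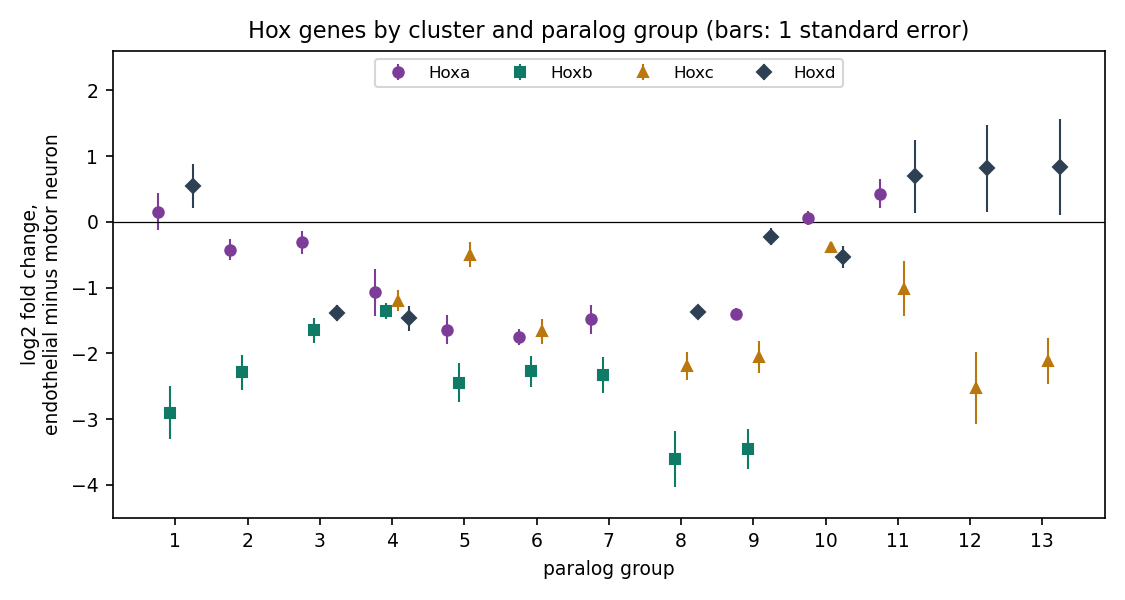
Log2 fold change (endothelial minus motor neuron) of 37 Hox genes by paralog group and cluster, with bars of 1 standard error; Hoxb13 is left out because it had no count in endothelial libraries. Hoxb genes of groups 8 and 9 lie lowest, and genes of group 10 lie near 0.

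Beyond their own markers both sorts held RNA of other cells, and in the endothelial libraries some marker lists of these cells summed higher than the endothelial list. Meningeal fibroblast markers were higher in endothelial libraries in 18 of 19 tested cases, with a median of 6.66. Col3a1, a collagen of connective tissue, was at 6046 and 5941 CPM against 79.9, 29.4 and 41.1 CPM (6.90 ± 0.48 SE, edgeR adjusted p = 0.00012), and the meningeal factor Foxc1 at 270.5 and 269 against 3.41, 2.51 and 2.06 CPM (6.66 ± 0.19). Per kilobase Col3a1 averaged 1077 CPM in endothelial libraries, whereas Cldn5, the highest of the endothelial markers, averaged 85.7. Summed over each list the fibroblast genes reached 3971 and 3914 CPM per kilobase and the endothelial markers 576 and 368. Such sums depend on which genes a list holds, and the share of each cell type in the sort was not tested. Crabp2, which binds retinoic acid, was the 1 member of the fibroblast list higher in motor neurons (112, 145 and 82.3 against 29.9 and 41.2 CPM). Dissection had kept the meninges with the cord.

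Mural cells, macrophages and red blood cells were present as well. All 14 tested markers of pericytes and smooth muscle were higher in endothelial libraries, among them Rgs5 (503 and 276 against 9.61, 8.38 and 6.59 CPM) and Abcc9 (194 and 119.9 against 1.48, 1.16 and 1.6 CPM). So were all 15 of macrophages, with the receptor gene Csf1r at 265 and 243 against 6.37, 1.25 and 1.18 CPM (6.41 ± 0.68) and Mrc1, a marker of border macrophages, at 238 and 256 against 3.74, 1.4 and 1.26 CPM (6.84 ± 0.42). All 13 red blood cell genes in the files were higher too. The embryonic globin gene Hbb-y was at 18657 and 9823 CPM in endothelial libraries and 106, 41.6 and 77.2 CPM in motor neurons (7.57 ± 0.54), the highest level per kilobase in the endothelial sort (22496 CPM per kilobase). Counts of Hba-a1 and Hba-a2, near-identical copies, are uncertain because reads that fit both are lost. Per kilobase the macrophage list summed to 662 and 568 CPM and the mural list to 396 and 278 CPM in batches 1 and 3, close to the sums of the endothelial list.

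Neural RNA was present in the endothelial sort as well. Over all tested genes 34.5% were higher in endothelial libraries and 31.7% in motor neurons. The progenitor list includes Notch1, which is given above among genes of the endothelial side. Of its 20 markers 9 were higher in endothelial libraries, 1 in motor neurons and 10 did not pass. The 1 was the proneural gene Neurog2, at -1.15 ± 0.39 (SE; edgeR adjusted p = 0.041), which lost its call without motor neuron batch 1, 2 or 3 (-1.14, -1.20 and -1.12) and with scaling by library totals alone (-1.06). The glial glutamate transporter Slc1a3 was at 368 and 466 against 19.3, 7.32 and 15.9 CPM (4.87 ± 0.40) and Fabp7, of radial glia and Schwann cell precursors, at 191 and 509.8 against 85.3, 26.4 and 69.2 CPM (2.54 ± 0.58). Without endothelial batch 1, 15 of the 20 were higher in endothelial libraries. The progenitor factor Sox2 was at 29.7 and 96.2 CPM against 22.3, 8.09 and 18.6 CPM and lost its call without endothelial batch 3 (0.85), motor neuron batch 2 (1.62) or motor neuron batch 3 (2.03), and with batch as a block (1.39). All 15 pan-neuronal genes were higher in motor neurons, but the endothelial libraries of batches 1 and 3 held 4.91 and 12.7% of the mean motor neuron sum of that list in CPM. Of 14 tested sensory neuron markers 4 were higher in endothelial libraries, no more than the share over all tested genes, 2 in motor neurons and 8 did not pass. Among these 8 was the factor Pou4f1, at 15.1 and 41.5 CPM in endothelial libraries against 39.8, 14.1 and 45.4 CPM in motor neurons. Markers of liver and surface ectoderm were close to absent, with sums of at most 3.69 and 3.5 CPM per kilobase in any library.

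**Figure D4:**
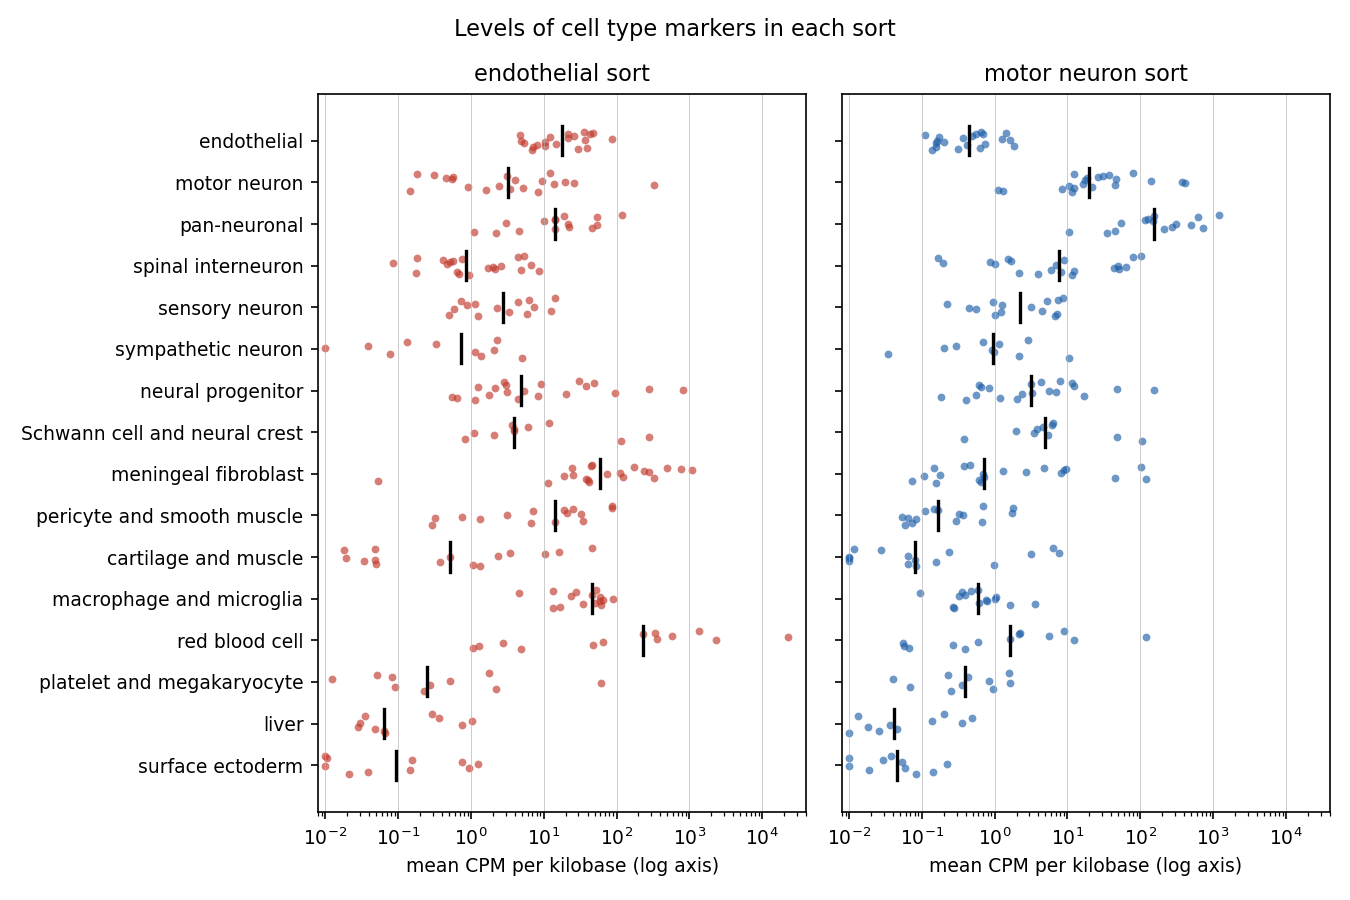
Mean level (CPM per kilobase, log axis, values under 0.01 drawn at 0.01) of each marker gene of 16 cell type lists in the endothelial sort (left) and the motor neuron sort (right), with the list median as a black line. In the left panel red blood cell and meningeal fibroblast genes reach far above the endothelial markers, up to Hbb-y at 22496 CPM per kilobase, and spinal interneuron genes reach the range of the motor neuron markers in the right panel.

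The motor neuron sort carried little RNA of vessels or blood, but held RNA of inhibitory interneurons. Its 3 libraries held 3.52, 2.11 and 2.52% of the endothelial sum of endothelial markers, 0.775, 0.313 and 0.575% for red blood cell genes and 5.67, 4.85 and 5.6% for fibroblast genes. Per kilobase the 20 interneuron markers summed to 435, 399.5 and 529.8 CPM in its libraries and the 20 motor neuron markers to 1298, 1852 and 843 CPM. Of 19 tested interneuron markers 12 were higher in motor neurons than in endothelial libraries. Pax2, a factor of inhibitory interneurons, was at 429, 367 and 568 CPM against 12.1 and 36.4 CPM (-4.23 ± 0.54 SE, edgeR adjusted p = 0.0009), and Gad2, which makes GABA, at 349, 362 and 395 against 7.43 and 16 CPM (-4.98 ± 0.36). Slc6a5, the glycine transporter of inhibitory neurons, was at 369.5, 322 and 415 against 8.04 and 22.8 CPM (-4.58 ± 0.49), and Lbx1, of dorsal interneurons, at 173, 185 and 232 against 6.03 and 15.7 CPM (-4.18 ± 0.44). Per kilobase Pax2 averaged 102 CPM in this sort, Gad2 64.3 and Slc6a5 51.2, while Isl1 averaged 78.7, Mnx1 37.4 and Chat 12.4. These 3 inhibitory markers exceeded Chat and Mnx1 per length, while the interneuron list as a whole summed to less than the motor neuron list in every library. Evx1, a factor of V0 interneurons, was at 20.8, 28.3 and 29 CPM, or 9.05 CPM per kilobase. The share of such cells in the sort was not tested.

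The libraries of a sort differed in how much of each source they held. From endothelial batch 1 to batch 3 the median ratio was 0.637 for endothelial markers, 0.607 for red blood cell genes, 0.629 for mural genes and 0.789 for cell cycle genes. For macrophage genes it was 0.885 and for fibroblast genes 0.995. Several neural lists went the other way, with 2.63 for pan-neuronal, 2.48 for interneuron and 2.71 for progenitor markers, although the summed CPM of the progenitor list was only 1.21 times as high. For motor neuron markers the median ratio was 1.4, with 13 of 20 higher in batch 3 and a ratio of the sums of 0.996. Isl1 in the endothelial libraries had a ratio of 2.68, close to that of Pou4f1 (2.74) and Tubb3 (2.86), whereas Slc5a7 had 0.991 and Aldh1a2 0.771. All 15 pan-neuronal and 19 of 20 progenitor genes were higher in batch 3, and none of the 20 endothelial markers was.

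Among the motor neuron libraries, batch 2 exceeded batch 3 in 19 of 20 motor neuron markers, with a median ratio of 2.57, but in only 1 of 19 interneuron markers, with a median ratio of 0.733. Progenitor markers had a median ratio of 0.517 and pan-neuronal genes of 1.02. Batch 2 was thus richest in motor neuron RNA and batch 3 in interneuron RNA, while neuronal RNA as a whole was level. Of 1034 genes at least 4-fold higher in motor neurons with a mean of at least 10 CPM, 508 were highest in batch 2, 458 in batch 3 and 68 in batch 1. Of 1740 such genes on the endothelial side 1403 were highest in batch 1. The level in the other sort had a median of 7.06% for these endothelial genes and of 12.9% for these motor neuron genes. The groups were chosen by the difference itself, so these shares describe it and test nothing.

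**Figure D5:**
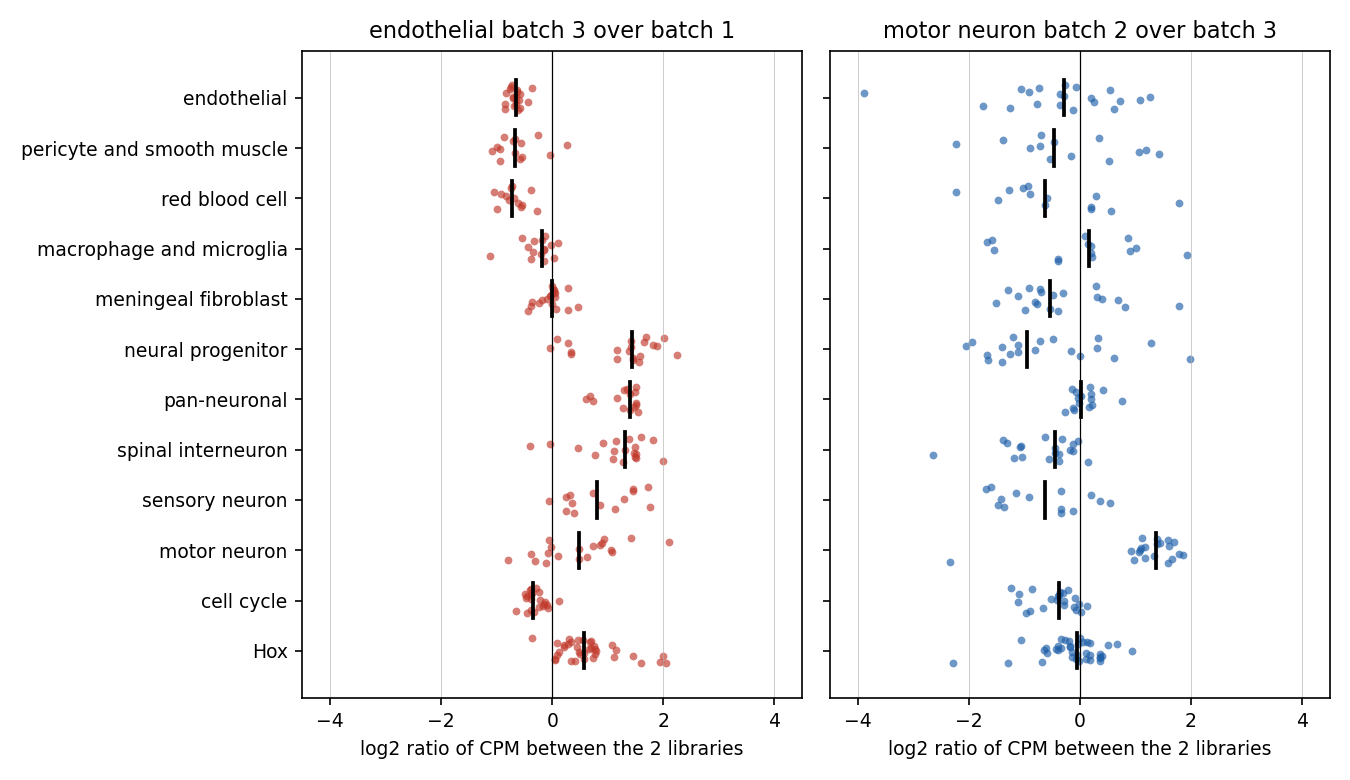
Log2 ratio of CPM between 2 libraries of a sort for each gene of 12 lists (left, endothelial batch 3 over batch 1; right, motor neuron batch 2 over batch 3), with the list median as a black line and values beyond 4 drawn at 4. Neural lists lie right of 0 and endothelial, mural and red blood cell lists left of it in the left panel; in the right panel motor neuron markers lie right of 0 and interneuron markers left.

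The same contrast in the 6 libraries lacking Plxnd1 called 6246 of 17791 tested genes (35.1%) higher in endothelial cells and 5768 (32.4%) higher in motor neurons, or 67.5% in either direction. At 4-fold it called 2949 (16.6%) and 1703 (9.57%). These libraries share no sample with the 5 above, though 1 of them, knockout endothelial batch 1, is the file that stands under both genotypes. Among 17591 genes tested in both, 5661 were called higher in endothelial cells in each, which is 92.6% of the wild-type and 91.8% of the knockout calls. On the motor neuron side 5193 were called in each, or 92.0% and 90.3%. Without that file 5350 genes were called higher in endothelial cells in both (86.9% of the wild-type and 93.6% of the knockout calls) and 4807 higher in motor neurons (83.7% and 92.9%). All 20 genes with the largest differences were called in the same direction, with and without it. Kdr differed by 5.09 and Chat by -7.46 on the log2 scale in the knockout libraries. Carried RNA of 3 lists recurred: 18 of 19 fibroblast and all 15 macrophage markers were higher in knockout endothelial libraries, with and without the file. Of the 19 interneuron markers 14 were higher in knockout motor neurons, and 13 without it. In other lists the number of members called differed with the file included, and the cause was not tested. The wild-type comparison had 2 against 3 libraries and the knockout 3 against 3, so the same difference can pass in 1 only. Members higher in endothelial libraries went from 9 in the wild type to 14 of 20 in the knockout for progenitor markers (median log2 fold change 1.55 and 1.65). They went from 1 to 6 of 10 for Schwann cell and neural crest markers (medians 0.26 and 1.51). For sensory neuron markers they went from 4 to 7 of 14 (medians 0.40 and 0.37). The liver list did not recur: of 4 tested members 2 were higher in wild-type endothelial libraries, whereas of 5 tested members 3 were higher in knockout motor neurons (median log2 fold change -5.11). That direction rested on knockout motor neuron batch 1, without which 3 of the 5 were higher in endothelial libraries (median 2.34). None was called in either direction without any 1 of the 3 knockout endothelial libraries or with batch as a block. A test of whether the difference between the sorts depended on genotype called 0 of 19266 genes in 11 libraries and 0 of 19114 without the file (edgeR quasi-likelihood interaction test), with 352 and 493 genes at an unadjusted p under 0.05.

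Per kilobase the most abundant RNAs of each sort gave the same account. In endothelial libraries they were Hbb-y, Hba-x, mt-Cytb, mt-Co1, H19, Hba-a1, Actb, mt-Nd1, Col3a1 and Tmsb4x. H19, an imprinted RNA of mesodermal tissue, was at 3601 and 3507 against 147, 61.6 and 73.2 CPM (5.24 ± 0.41). In motor neurons the first 9 were mt-Cytb, mt-Co1, Tubb5, mt-Nd1, Tubb3, Nnat, Actb, Ptms and Tubb2b, so that tubulins took the place that globins and collagen held in the endothelial sort. Tubb5 was at 3910.4, 4420.4 and 4066 against 1989.5 and 2143 CPM (-1.0 ± 0.14), and the mitochondrial mt-Cytb did not pass (1868 and 2074 against 2094, 2223 and 2179.8 CPM).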

How the data were processed

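RNA-seq counts of 5 wild-type libraries (2 endothelial, 3 motor neuron) were compared, with 6 knockout libraries as a second measurement. The deposited files hold raw counts per gene, from single reads assigned by exon to gene names of GENCODE M22 basic on mm10 without strand, per the file headers. Reads that fitted several genes or places were not counted. Trimmomatic 0.39, STAR 2.5.3a and featureCounts 1.6.4 are named per the submitters' processing notes. The labels name a stranded kit, but the counting did not use strand, so antisense and overlapping genes cannot be told apart. Libraries held 21526707 to 26930214 counts (wild type) and 20680902 to 27035395 (knockout).

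Counts were tested with edgeR 4.0.16 in R 4.3.3: TMM scaling, a minimum count of 10 (filterByExpr), the quasi-likelihood F-test and Benjamini-Hochberg adjustment over all genes tested, called at 0.05. A second call asked for a log2 fold change of at least 2 in size. CPM were divided by TMM-scaled library sizes, and by exon length for CPM per kilobase. DESeq2 1.42.0, other scalings and filters, a blocked fit on batch, glmTreat against a 2-fold change, a joint fit of 11 libraries and leaving out each library were alternatives. The titles give the numbers as batches, which is why they were taken to pair the libraries. Residuals of same-numbered libraries correlated at 0.275 (batch 1) and 0.266 (batch 3), which are not separate evidence, since residuals of 2 endothelial libraries mirror each other.

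The 28 gene lists, 109 pairs and all members were chosen with earlier results of these data known. Named genes were the list and pair members, the 10 with the largest change per direction (at least 50 CPM, groups not overlapping), the 5 outside the lists with the smallest adjusted p, and the 10 most abundant per kilobase in each sort; a few list members are not reported here. On simulated data made from these libraries, with 17809 genes run, the test recovered 40% of 2-fold and 77% of 4-fold changes with 10 false calls. In that simulation 200 genes were changed, whereas 66.1% of the real genes were called. The adjustment for multiple tests is stricter with so few changed genes, so these rates do not measure recovery in the real comparison. Leaving out the file deposited under both genotypes from the overlap and interaction tests was added after seeing the data. Wild-type endothelial batch 2 was left out as a copy of knockout endothelial batch 1.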

Additional observations from a re-analysis of the deposited data

How the results depend on the processing

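The counts of genes higher in endothelial cells and in motor neurons moved by over 1.5 times under 1 alternative, a test against a fold of 2 (glmTreat), which called 3674 and 2360. The 4-fold counts fell to 2033 and 1139 where at least 5 CPM was asked for, with 12891 genes tested. With batch as a replicate block, pairing batches 1 and 3, the counts were 6065 and 5493, with 3261 and 1772 at 4-fold, and in the knockout libraries 6393 and 5863. Of the named genes the block changed the calls of Sox2, Slit3, Mecom and Prox1, given with the results. It moved the endothelial counts of the glycolysis (3 to 6), progenitor (9 to 7), pericyte (14 to 13), endothelial transcription factor (21 to 20), venous and arterial (11 to 10) and liver (2 to 3) lists. It moved the motor neuron counts of the Hox (26 to 28), motor neuron (14 to 15), interneuron (12 to 13), sympathetic (1 to 3), surface ectoderm (1 to 0) and endothelial transcription factor (0 to 1) lists, and no other list count. DESeq2 called 6457 and 5604 genes. Scaling by library totals alone gave 6833 and 5159 and moved the median log2 fold change by 0.094. Leaving out 1 library at a time gave 5436 to 5902 and 4755 to 5392 genes, 2982 to 3220 and 1434 to 2082 at 4-fold, and 5836 to 6178 and 5213 to 5647 in the knockout libraries. A lone endothelial library was assumed to vary like the motor neuron ones. Of 2748 values of 212 named genes under the alternatives, 2681 kept direction and call, 38 lost the call (23 of them against a fold of 2), 15 gained it and 14 changed sign.

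The sign changes were in 8 genes that had not passed, and the cause was not tested. With batch as a block the log2 fold change was 0.12 for Foxp1 and 0.059 for Nr2f2. With library totals alone it was 0.062 for Nr2f2 and 0.031 for Robo1. With 1 library left out at a time it ranged from -0.44 to 0.11 for Foxp1, -0.59 to 1.36 for Hoxd11, -0.56 to 1.5 for Hoxd12, -0.083 to 0.059 for Nr2f2, -0.037 to 0.20 for Nrp1, -0.47 to 1.21 for Ntn1, -1.14 to 0.33 for Pou4f1 and -0.20 to 0.063 for Robo1.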

Other observations

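Of all genes called in both genotypes, 2 were called in opposite directions. Cdon, a cell surface receptor of hedgehog signals that is in no list and was chosen after its values were seen, had a log2 fold change, endothelial minus motor neuron, of -0.57 in the wild-type and 0.40 in the knockout libraries, and it was also called in opposite directions without the file deposited under both genotypes. Apob, a lipoprotein gene of the liver list, had 4.26 and -6.55, and was not called in opposite directions without that file; without knockout motor neuron batch 1 it was called higher in endothelial libraries in both genotypes (2.34 in the knockout). The interaction test of edgeR called neither gene.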
